A study of Rattus norvegicus with 8 samples.

Results

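Anti-Müllerian hormone (AMH) and the bone morphogenetic proteins (BMPs) are secreted ligands of the transforming growth factor beta family. A ligand dimer brings together type II and type I receptor kinases on the cell surface, the type II receptor activates the type I receptor, and the type I receptor phosphorylates the receptor-regulated SMAD proteins that carry the signal to the nucleus. In the ovary AMH is a product of granulosa cells and acts as a brake on follicle growth, while BMPs pass between theca cells, granulosa cells and the oocyte and hold back premature luteinization. The genes examined here were the ligands Amh, Bmp2, Bmp4, Bmp6 and Bmp7, the type II receptors Amhr2 and Bmpr2, and the type I receptors Bmpr1a, Bmpr1b and Acvr1, which were listed by symbol. Of these 10 genes, 9 were measured by a probe set that the array annotation assigns to that gene alone, out of 14217 genes measured in this way. Bmpr1b was named by no such probe set, and its level is not given.

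Ovarian cortex of adult female Sprague-Dawley rats was compared between DHT-treated animals, which carried a silicone capsule that released 5α-dihydrotestosterone (DHT, an androgen that aromatase cannot convert to estrogen) at 83 µg per day, and CTL animals, which carried an empty capsule. Capsules stayed in place for 12 weeks in both groups and all animals were 15 weeks old at collection. The design asks how long exposure to androgen, used as a rat model of polycystic ovarian syndrome, alters ovarian transcripts. Each group had 3 arrays of single animals and 1 array of the pooled RNA of the same 3 animals, 8 arrays in all, and the groups differ in make-up beyond the agent, since the methods describe corpora lutea in most CTL ovaries and few or none in DHT-treated ovaries.

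Values are log2 expression after GCRMA, the normalization used by the authors, so that a difference of 1 is a 2-fold change. A level of 1 probe set cannot be set against that of another, and each gene was compared only with itself across arrays. The background level, taken from receptor genes of smell and taste, lay between 2.62 and 3.05 depending on the array. CTL replicate 3 stood apart from the other CTL animals (Pearson r over all probe sets 0.866 and 0.879, against 0.983 between CTL replicates 1 and 2). Gapdh is read by one control probe set near its 3′ end and another near its 5′ end, and their log2 difference (called the Gapdh difference below), which grows as the labelled RNA is shorter at its 5′ end, was 2.99 to 3.98 on the DHT replicates, 0.39 and 0.62 on CTL replicates 1 and 2 and 3.49 on CTL replicate 3. Where leaving out this animal changed a call or a direction of a gene named here, or moved its value by over 1.5 times, the value without it is given, as it is for most of the 9 genes. The precision of all values is limited by having 3 arrays per group, and an exact permutation test of 3 against 3 cannot give a two-sided p below 0.1.

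The upstream sequence of Amh is shown first, because Gata4, a factor known to act on it, was called higher by the criteria given below. Nr5a1, which encodes steroidogenic factor 1, was not called, and neither was Amh. RefSeq (GRCr8) gave an upstream window for 6 of the 10 genes, and the 250 bases before the start were searched on both strands for AAGGTCA, the site of steroidogenic factor 1, for AGATAA and AGATAG or their forms with T first, TGATAA and also TGATAG, the sites of GATA factors, and for AGAACA, the half-site of the androgen receptor. None of these motifs overlapped another in the windows printed. Among 33469 windows of the same length in the rat genome, 3.99% held the first, 27% held the second and 17.5% held the third. Amh was the single gene of the 6 with a steroidogenic factor 1 motif, which began 84 bases before the start, and the single gene with a GATA motif, which began 67 bases before it. It held no androgen receptor half-site. Bmpr2 is printed beside it because it and Bmpr1a were the 2 genes with that half-site, at 49 bases before the start in Bmpr2 and 181 in Bmpr1a. The matched letters are in capitals, on the strand of the gene from 5′ to 3′, and a match is not evidence of binding.
Amh (chr7:9559868-9560117, minus strand): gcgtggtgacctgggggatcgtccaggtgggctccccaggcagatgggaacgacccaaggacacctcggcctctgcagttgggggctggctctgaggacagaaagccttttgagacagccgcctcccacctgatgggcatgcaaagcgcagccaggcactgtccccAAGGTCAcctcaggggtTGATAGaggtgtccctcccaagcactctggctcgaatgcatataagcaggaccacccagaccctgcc
Bmpr2 (chr9:68686566-68686815, plus strand): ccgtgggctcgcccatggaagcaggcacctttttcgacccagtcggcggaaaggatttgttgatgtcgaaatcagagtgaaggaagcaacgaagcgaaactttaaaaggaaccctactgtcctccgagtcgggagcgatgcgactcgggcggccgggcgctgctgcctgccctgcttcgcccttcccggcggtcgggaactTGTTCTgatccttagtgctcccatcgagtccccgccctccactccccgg

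Bmp2 rose in DHT-treated ovaries and was the 1 gene of the 9 to pass the test, with a 3.49-fold higher mean. To be called, a probe set had to differ by at least 2-fold, with limma's p at or under 0.01 and its Benjamini-Hochberg adjusted p over 31042 probe sets at or under 10%. Of all probe sets 1.03% were called, 0.68% higher and 0.351% lower, and of those above background on at least 1 array 1.52% were called. Amh had a 1.96-fold higher mean with no overlap between the groups, and it missed these criteria. No member was called lower, and at an unadjusted p under 0.05 limma gave 2 members higher, Bmp2 and Amh, and 0 lower, where 11.9% of all probe sets and 17.4% of those above background had such a p. Every DHT animal lay above every CTL animal for 4 of the 9 genes, namely Amh, Bmp2, Bmp7 and Bmpr1a, where 10.6% of all probe sets and 15.6% of those above background did so. None of the 9 had every DHT animal below every CTL animal, as 6.85% of all probe sets had, and the groups did not overlap in either direction for 17.5% of all probe sets. Of the 9 genes, 8 had a positive log2 fold change, as did 37.5% of all probe sets and 52.2% of those above background, and the median of the 9 was 0.67 against 0.022 over those probe sets. On the arrays of pooled RNA, DHT read above CTL for 8 of the 9 genes, as for 69.5% of all probe sets. These were not the same 8, since pooled RNA gave -0.24 for Bmp6 and 0.27 for Bmpr2, each opposite in sign to the single animals. The directions of all 9 were kept after median scaling and after quantile normalization.

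**Figure D1:**
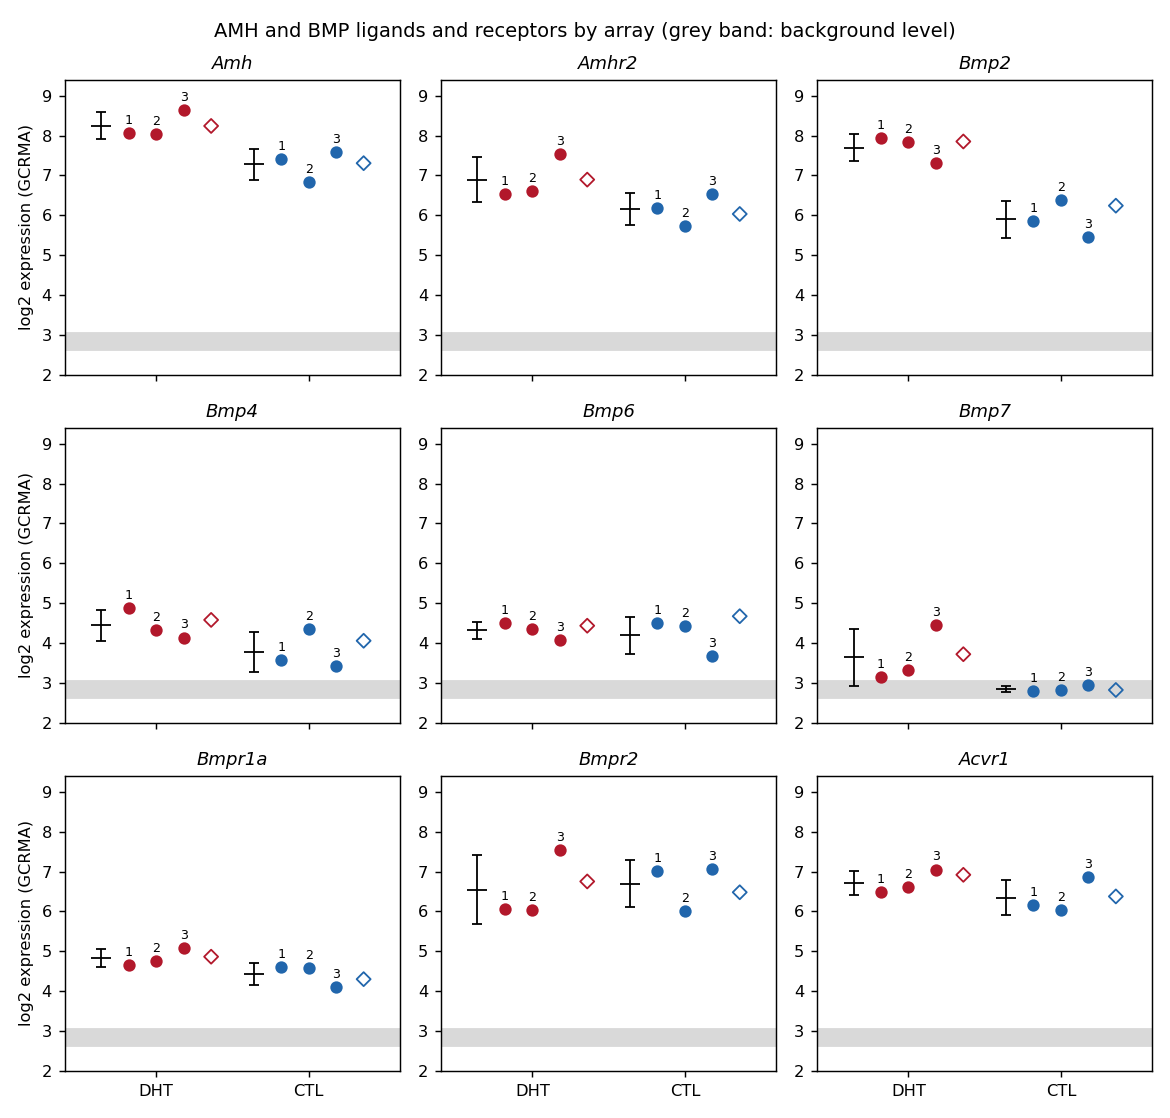
Log2 expression of the 9 measured genes on each array, with DHT arrays in red at the left and CTL arrays in blue at the right of each panel, filled points for single animals (labelled by replicate), open diamonds for pooled RNA, and black bars for mean ± SD of the 3 animals. The groups are clearly apart for Bmp2, apart by less for Amh, and intermixed for Bmp6 and Bmpr2, and the Bmp7 points of CTL animals lie in the grey band of background levels.

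Among the ligands, Bmp2 signals through the BMP type I receptors to SMAD proteins and has been described in granulosa cells of growing rat follicles. On its brighter probe set, 1398270_at, the log2 values were 7.94, 7.84 and 7.31 in DHT replicates 1, 2 and 3, against 5.87, 6.37 and 5.45 in CTL replicates 1, 2 and 3. The lowest DHT animal lay 0.94 above the highest CTL animal. Bmp2 averaged 7.70 ± 0.34 in the DHT group and 5.90 ± 0.46 in the CTL group (SD, n = 3 each). The log2 fold change was 1.80 (standard error 0.29, 95% interval 1.06 to 2.55, limma adjusted p = 0.0918). The second Bmp2 probe set, 1368945_at, read 6.61, 6.80 and 6.08 in the DHT animals and 4.80, 4.89 and 4.54 in the CTL animals. It was also called, at 1.75 (standard error 0.22, limma adjusted p = 0.0612), although the 2 probe sets read the same labelled RNA and are not independent replicates. The arrays of pooled RNA read 7.85 for DHT and 6.24 for CTL on the brighter probe set, a difference of 1.61, and 6.66 for DHT and 4.59 for CTL on the other, a difference of 2.07.

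The size of the Bmp2 change held better than its call. The log2 fold change ranged from 1.58 to 2.28 over the 17 alternatives tested. The replicate block, the mean-variance trend, leaving out dim probe sets and changing the false discovery rate or fold criterion cannot move this estimate. In those it stayed at 1.80. Against CTL replicate 3 alone, a single array with the lowest Bmp2 value of all, it was 2.25. In the same comparison Bmp4 was 1.03 and Bmpr1a 0.73, above their values with all CTL animals. Amh was 0.65 and Amhr2 0.35, below theirs, and Acvr1 turned to -0.14. With the Gapdh difference as a covariate Bmp2 had 2.28 (limma adjusted p = 0.0157), where 12.1% of all probe sets were called. Among CTL animals that difference was large only in replicate 3, so this value leans on the same animal. The part of RNA length in the Bmp2 change was not tested. The call was kept without CTL replicate 3 (1.58, limma adjusted p = 0.0602) and lost without CTL replicate 1 (1.79, limma adjusted p = 0.202), CTL replicate 2 (2.04, limma adjusted p = 0.117) or DHT replicate 1, 2 or 3 (1.68, 1.73 and 1.995, limma adjusted p = 0.334, 0.313 and 0.202). Without any 1 of the DHT replicates no probe set on the array was called, and the share called was 0.583% when CTL replicate 1 was left out, 0.296% for CTL replicate 2 and 5.23% for CTL replicate 3. Bmp2 also stayed called when pooled RNA stood as replicate 4 (3.11% of probe sets called), a setting that counts the same animals again. It was likewise called after quantile normalization (0.557%), with dim probe sets left out (2.08%) and with array quality weights (6.04%). The call was also kept with no fold criterion (1.87%) and with the mean of each gene's probe sets (1.05% of those means and unnamed probe sets). It was not called after median scaling (0.95% of probe sets called), with a mean-variance trend (0.197%), at a false discovery rate of 5% (0.0902%) or with the replicate number as a block (0%).

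**Figure D2:**
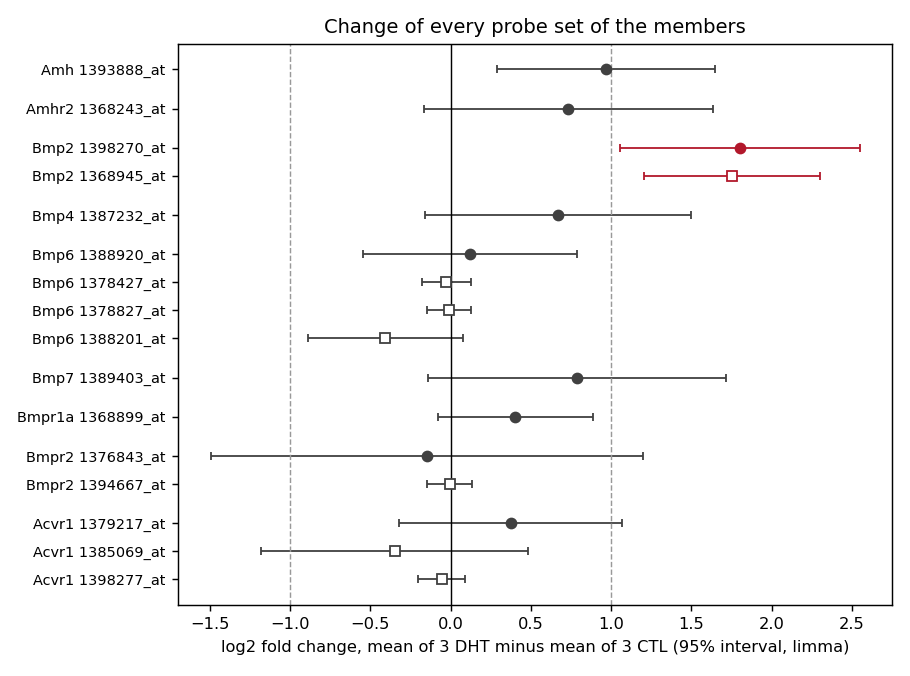
Log2 fold change (mean of 3 DHT minus mean of 3 CTL animals) with its 95% interval from limma for all 16 probe sets of the 9 genes, where circles mark the probe set that stands for the gene, squares the others, red the called ones and dashed lines a 2-fold change. The 2 Bmp2 probe sets lie together at 1.80 and 1.75, and the interval of Amh, 0.29 to 1.64, does not reach 0.

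Amh had log2 values of 8.06, 8.03 and 8.63 in DHT replicates 1, 2 and 3, against 7.40, 6.84 and 7.59 in CTL replicates 1, 2 and 3. All DHT animals were above all CTL animals, by 0.44 between the closest pair. Amh averaged 8.24 ± 0.34 in the DHT group and 7.28 ± 0.39 in the CTL group (SD, n = 3 each). The log2 fold change was 0.97 (standard error 0.27, 95% interval 0.29 to 1.64, limma adjusted p = 0.238). The fold lay just under 2, the unadjusted p was over 0.01 and the adjusted p was over 10%, so that all 3 criteria were missed. Pooled RNA read 8.24 for DHT and 7.31 for CTL. With the pooled arrays counted as replicate 4 of each group the log2 fold change was 0.96 (limma adjusted p = 0.0346), still under 2-fold. That setting counts RNA of the same animals again, so its p does not come from independent animals. Across the alternatives Amh stayed positive, from 0.61 with the Gapdh difference as a covariate (limma adjusted p = 0.199) to 1.12 without CTL replicate 3 (limma adjusted p = 0.115), and it was called in none of them.

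**Figure D3:**
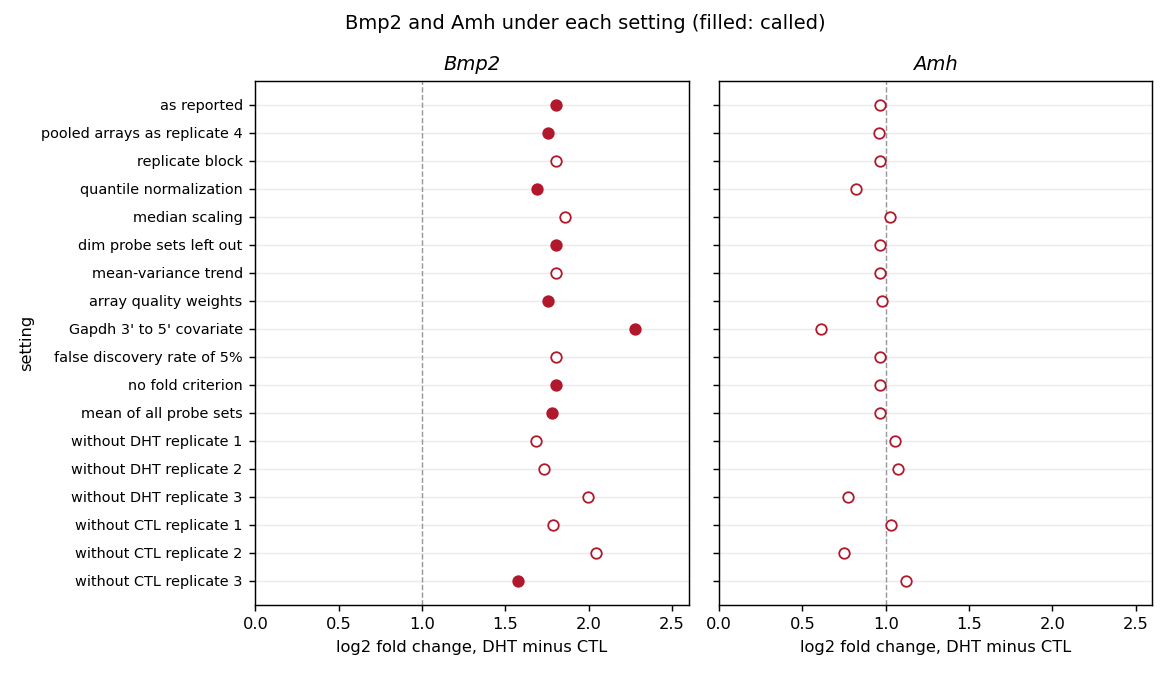
Log2 fold change of Bmp2 (left) and Amh (right), DHT minus CTL, under the setting reported and 17 alternatives, with filled points where the gene was called and a dashed line at a 2-fold change. Bmp2 stays between 1.58 and 2.28 with its call depending on the setting, while Amh stays between 0.61 and 1.12 and is called in no setting.

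Bmp4 and Bmp7 are made by theca cells in the rat ovary, and Bmp6 by the oocyte and granulosa cells of rodents. Bmp4 read 4.89, 4.33 and 4.14 in DHT replicates 1, 2 and 3 and 3.58, 4.36 and 3.42 in CTL replicates 1, 2 and 3. The groups overlapped through CTL replicate 2, and the log2 fold change was 0.67 (standard error 0.33, 95% interval -0.16 to 1.497, limma adjusted p = 0.527), with 0.49 without CTL replicate 3. Bmp7 read 3.15, 3.32 and 4.46 in the DHT animals, against 2.81, 2.81 and 2.95 in the CTL animals. The CTL values lay at or barely above background, at or below it on 1 of the 3 arrays, and DHT replicate 3 held most of the difference of 0.79 (standard error 0.37, limma adjusted p = 0.497), which was 0.38 without that animal. Bmp6 did not separate the groups, with 4.51, 4.36 and 4.09 in the DHT animals and 4.50, 4.43 and 3.66 in the CTL animals (log2 fold change 0.12, 95% interval -0.55 to 0.79, limma adjusted p = 0.896), and it was -0.15 without CTL replicate 3. Of its 3 other probe sets, 1378427_at and 1378827_at were at background on all 6 arrays, and 1388201_at, at background on all 3 DHT arrays and on CTL replicate 3, had a mean at least 1.15-fold lower in DHT-treated ovaries (limma adjusted p = 0.505).

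Among the type II receptors, Amhr2, the receptor that binds AMH and no other known ligand, read 6.53, 6.60 and 7.54 in DHT replicates 1, 2 and 3 and 6.18, 5.74 and 6.54 in CTL replicates 1, 2 and 3. The groups met within 0.011, since CTL replicate 3 was level with DHT replicate 1. The log2 fold change was 0.73 (standard error 0.35, 95% interval -0.17 to 1.63, limma adjusted p = 0.52). It was 0.93 without CTL replicate 3 and 0.41 without DHT replicate 3. Bmpr2, the type II receptor shared by many BMPs, read 6.06, 6.04 and 7.54 in the DHT animals and 7.02, 6.02 and 7.05 in the CTL animals. Its groups were intermixed, its log2 fold change of -0.15 had an interval of -1.496 to 1.196 (limma adjusted p = 0.914), it was 0.028 without CTL replicate 3, and changes of over 2-fold in either direction remain within that interval. Its second probe set, 1394667_at, was at background on all 6 arrays.

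Type I receptors are shared between ligands, and Acvr1 and Bmpr1a both serve AMH as well as BMPs. Bmpr1a read 4.67, 4.75 and 5.09 in DHT replicates 1, 2 and 3, against 4.60, 4.59 and 4.11 in CTL replicates 1, 2 and 3. All DHT animals were above all CTL animals, by 0.063 between the closest pair, and the log2 fold change was 0.40 (standard error 0.19, 95% interval -0.08 to 0.88, limma adjusted p = 0.51), with 0.24 without CTL replicate 3. Acvr1 read 6.50, 6.61 and 7.05 in the DHT animals and 6.16, 6.03 and 6.85 in the CTL animals. CTL replicate 3 lay within the DHT range, and the log2 fold change was 0.37 (standard error 0.27, 95% interval -0.32 to 1.07, limma adjusted p = 0.80), with 0.63 without that animal. Of its other probe sets, 1398277_at was at background on all 6 arrays and 1385069_at ran the other way at -0.35 (limma adjusted p = 0.896, and -0.69 without CTL replicate 3), at background on 2 DHT arrays and 1 CTL array.

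The genes differed in which animals were high within a group. DHT replicate 3 had the highest value of the 3 DHT animals for 6 of the 9 genes, namely Amh, Amhr2, Bmp7, Bmpr1a, Bmpr2 and Acvr1, and the lowest for the other 3, Bmp2, Bmp4 and Bmp6. CTL replicate 3 was the highest CTL animal for 5 genes, Amh, Amhr2, Bmp7, Bmpr2 and Acvr1, and the lowest for 4, Bmp2, Bmp4, Bmp6 and Bmpr1a. These shares are to be read against all probe sets above background, where DHT replicate 3 was the highest DHT animal in 42.4% and CTL replicate 3 the highest CTL animal in 47.1%. The same 2 animals had the largest Gapdh difference of their groups, 3.98 and 3.49, and with that difference as a covariate the log2 fold changes were 0.255 for Amhr2, 0.55 for Bmp7, -0.16 for Acvr1, -0.66 for Bmpr2, 0.66 for Bmpr1a, 0.66 for Bmp6 and 0.997 for Bmp4, none of them called. Of these, Bmp6 had a limma adjusted p of 0.0306 under the covariate, with a fold under 2, where 12.1% of all probe sets were called. The median SD of the 9 genes was 0.34 among DHT animals and 0.44 among CTL animals, against 0.14 and 0.40 over all probe sets above background.

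**Figure D4:**
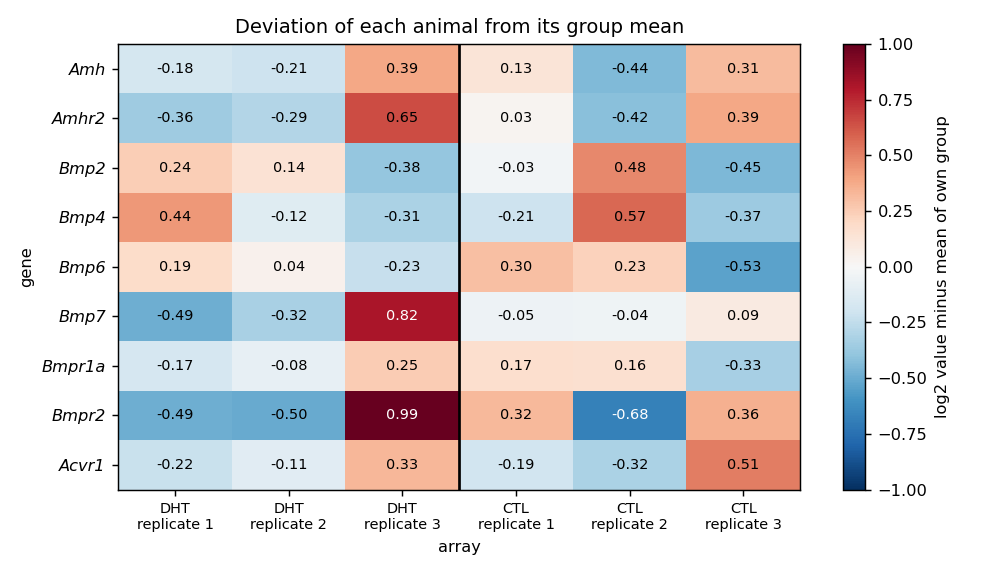
Log2 value of each animal minus the mean of its own group for the 9 genes, with the 3 DHT animals left of the black line and the 3 CTL animals right of it, red for above and blue for below the group mean. DHT replicate 3 is above its group mean for 6 genes and below it for Bmp2, Bmp4 and Bmp6.

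RNA of whole tissue does not tell fewer cells of a type apart from less RNA per cell, so the levels of cell type markers are given beside those of Amh and Bmp2. Counts of markers called, or with every DHT animal above every CTL animal, are to be read against the 1.03% and 10.6% of all probe sets given above. For every DHT animal below every CTL animal that share was 6.85%. It was 11.9% for an unadjusted p under 0.05, and a positive log2 fold change was found in 52.2% of probe sets above background. Of 10 granulosa markers 9 were measured, all above background on all 6 arrays. Inhba, a subunit of activins and inhibins, was called higher, no marker was called lower, and every DHT animal lay above every CTL animal for 4 of the 9. Cyp19a1, the aromatase that makes estrogen, had -2.91 (limma adjusted p = 0.404). Hsd17b1 had 2.002, Inha 1.789 and Inhbb 1.504, each without overlap between the groups (limma adjusted p = 0.213, 0.265 and 0.271). Gja1 had 0.55 with overlapping groups (limma adjusted p = 0.368). Foxl2 had 0.09, Nr5a2 0.22 and Kitlg -0.07, each with overlapping groups, and -0.03, -0.18 and -0.17 without CTL replicate 3. The median of the 9 was 0.55, and limma gave 5 higher and 1 lower at an unadjusted p under 0.05. The summed linear level of the list was 12693 to 15514 in DHT-treated and 6167 to 8633 in CTL ovaries. Sums here and below lean on the brightest probe sets of a list, such as those of Gja1 and Inhba for granulosa. Of 5 measured theca markers, Insl3, a peptide hormone of theca cells, was called higher, and 4 had a positive log2 fold change, with a median of 1.04 over the 5. Insl3 was at background on CTL replicate 3 and Gli1, a target of hedgehog signals, on all 3 CTL arrays. The summed theca level was 1980 to 3579 in DHT-treated ovaries and 1650, 4578 and 819 in CTL replicates 1, 2 and 3, and Lhcgr, the luteinizing hormone receptor, which corpora lutea also express, had its highest value, 11.92, in CTL replicate 2. The log2 fold change of Lhcgr was -0.63 (limma adjusted p = 0.896), and -1.35 without CTL replicate 3. None of 5 luteal markers was called by limma, 2 having an unadjusted p under 0.05, and their summed level was 569 to 2462 in DHT-treated and 5253 to 12539 in CTL ovaries. Stromal markers gave no call, and their summed level was 5499 to 6682 in DHT-treated ovaries and 5579, 4092 and 1372 in CTL replicates 1, 2 and 3, so that the lowest CTL value was that of replicate 3. All 5 stromal log2 fold changes were positive, and every DHT animal lay above every CTL animal for 3 of them. Pdgfra, 1 of these, missed only the fold criterion, at 0.78 (limma adjusted p = 0.0708). Endothelial markers gave no call, with sums of 150 to 219 in DHT-treated and 248 to 413 in CTL ovaries. Macrophage markers summed to 183 to 207 in DHT-treated and 270 to 612 in CTL ovaries, with Ctss, a lysosomal protease of macrophages, called lower. All 7 macrophage log2 fold changes were negative, with every DHT animal below every CTL animal for 4 of the 7. The lowest CTL sum of granulosa, luteal, endothelial and macrophage markers was also that of replicate 3. Smooth muscle gave no call, with sums of 736 to 1476 in DHT-treated ovaries and 1002, 1210 and 240 in CTL replicates 1, 2 and 3. Surface epithelium gave no call, with sums of 386, 584 and 97.3 in DHT replicates 1, 2 and 3 and 55.7 to 98.1 in CTL ovaries. The groups overlapped for all 5 measured markers, 3 with a positive and 2 with a negative log2 fold change. In that list Cdh1, an epithelial cadherin, read 8.34, 8.92 and 4.32 in DHT replicates 1, 2 and 3 and 3.16 to 4.49 in CTL ovaries (log2 fold change 3.37, limma adjusted p = 0.418). The sums of DHT replicates 1 and 2 lean on this gene, and Msln ran the other way at -0.76 (limma adjusted p = 0.346). Of 5 measured oocyte markers, Zp2, a zona pellucida protein, was called higher, while Bmp15 and Zp1 were at background on all arrays of single animals. The groups overlapped for Zp3 (0.22, and -0.11 without CTL replicate 3). They also overlapped for Gdf9 (-0.09, and -0.29 without CTL replicate 3), which was at background on 2 DHT arrays and 1 CTL array. The median of the 5 was -0.004. Markers of oviduct and fat were at background on those arrays, as were 3 of 5 pancreatic markers, with Cpa1 called higher. The part of cell composition in the values of Amh and Bmp2 was not tested.

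Beyond the ligands and receptors above, 53 of 64 listed genes of AMH and BMP signalling were measured, 7 of them at background on all 6 arrays. Of the 53, 2 were called higher, Gata4 and Nr0b1, and 0 lower, beside the 1.03% of all probe sets called. At an unadjusted p under 0.05 limma gave 12 higher and 2 lower, where 11.9% of all probe sets and 17.4% of those above background had such a p in either direction. Their median log2 fold change was 0.019, and every DHT animal lay above every CTL animal for 18 of them, where 10.6% of all probe sets and 15.6% of those above background did so, and below for 3, where 6.85% of all probe sets did so.

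Both called genes belong to the regulators of Amh transcription. Gata4, a zinc finger factor that activates the Amh promoter, read 8.68, 8.46 and 9.02 in DHT replicates 1, 2 and 3, against 6.58, 6.72 and 5.57 in CTL replicates 1, 2 and 3 (log2 fold change 2.43, standard error 0.35, limma adjusted p = 0.0745). Nr0b1, an orphan nuclear receptor that represses steroidogenic factor 1, read 6.34, 6.23 and 5.43 in the DHT animals and 4.15, 4.25 and 3.68 in the CTL animals (log2 fold change 1.97, standard error 0.30, limma adjusted p = 0.0819). Nr5a1, which encodes steroidogenic factor 1, read 8.11, 8.31 and 7.44 in the DHT animals and 6.61, 6.64 and 4.53 in the CTL animals, with CTL replicate 3 far below the rest, and was not called (2.03, standard error 0.65, limma adjusted p = 0.312, and 1.33 without that animal). Wt1, another factor that acts on this promoter, had -0.03 (limma adjusted p = 0.945), and -0.19 without CTL replicate 3. Gata4 and Nr0b1 stayed called without CTL replicate 3, and neither was called without any 1 of the other 5 animals. The 2 motifs in capitals in the Amh window belong to the factor families of Gata4 and Nr5a1, and these arrays give no measure of binding. Whether either factor bears on the level of Amh was not tested.

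None of the 14 measured antagonists was called by limma, with 3 higher and 0 lower at an unadjusted p under 0.05, beside the 17.4% of all probe sets above background that had such a p. Bambi, a pseudoreceptor that blocks BMP and activin signalling, had 7.43 to 7.95 in DHT-treated and 5.70 to 6.86 in CTL ovaries (log2 fold change 1.23, limma adjusted p = 0.249). Twsg1, a modulator of BMP binding by chordin, had 0.41 (limma adjusted p = 0.201), and Fstl1, a secreted glycoprotein related to follistatin, had 0.80 (limma adjusted p = 0.395), and 0.49 without CTL replicate 3. Among the 5 co-receptors, Rgmb, which enhances BMP signalling, had 5.15 to 5.34 in DHT-treated and 4.22 to 4.67 in CTL ovaries, a difference of 0.85 that lay just outside the false discovery limit and under 2-fold (limma adjusted p = 0.105). Without CTL replicate 3 Rgmb was called, at 1.001. Rgma of the same family had 0.71 (limma adjusted p = 0.402), and Eng, an endothelial co-receptor, had -0.63 (limma adjusted p = 0.234).

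The proteases that process ligand precursors had positive log2 fold changes in 4 of 4 measured, with none called. Pcsk6, a proprotein convertase, had 4.49 to 4.68 in DHT-treated and 3.97 to 4.19 in CTL ovaries (log2 fold change 0.51, limma adjusted p = 0.106). Furin, another convertase, had 0.49 (limma adjusted p = 0.255), and Bmp1, a metalloprotease that is no BMP ligand despite its name, had 0.80 (limma adjusted p = 0.399). Of the 8 transducers, Smad4, the partner shared by all receptor-regulated SMAD proteins, had 8.05 to 8.16 in DHT-treated and 7.51 to 7.75 in CTL ovaries (0.43, limma adjusted p = 0.141), Smad5 had 0.85 (limma adjusted p = 0.507), and the inhibitory Smad7 had 0.29 (limma adjusted p = 0.617). Without CTL replicate 3 these were 0.41 for Smad5 and 0.44 for Smad7. Target genes of BMP signalling gave no call, 6 of the 8 having a negative log2 fold change, and Id2, an inhibitor of helix-loop-helix factors, had values of 8.24 to 9.15 in DHT-treated and 9.49 to 10.44 in CTL ovaries (-1.19, limma adjusted p = 0.253). Of the same family, Id1 had 0.004, Id3 -0.63 and Id4 -0.01. Without CTL replicate 3, where Id3 was at background, these were -0.56, -2.68 and 0.30. Atoh8, a helix-loop-helix target at background on 1 CTL array, had 0.11 (limma adjusted p = 0.759) and the homeobox gene Msx1 had -0.33 (limma adjusted p = 0.832), with 0.059 for Atoh8 and -0.047 for Msx1 without CTL replicate 3.

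The remaining receptors and ligands gave no call. Acvr2a, an activin and BMP type II receptor, had -0.59 (limma adjusted p = 0.678), with 3.80 to 3.97 in DHT-treated and 4.003 to 5.29 in CTL ovaries, its relative Acvr2b had 0.31 (limma adjusted p = 0.625), and Acvrl1, an endothelial type I receptor, had -0.51 (limma adjusted p = 0.553). Without CTL replicate 3 these were -0.19 for Acvr2a, 0.35 for Acvr2b and -0.77 for Acvrl1. Of 7 other ligands measured, 4 were at background on all 6 arrays, among them Gdf10 and the oocyte factor Bmp15, so that no level or difference is given for them. Of the rest, Bmp3 had 0.13 (limma adjusted p = 0.615) with 2 CTL arrays at background, and Bmp5 had -0.13 (limma adjusted p = 0.896) with 1 CTL array at background and 0.033 without CTL replicate 3.

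**Figure D5:**
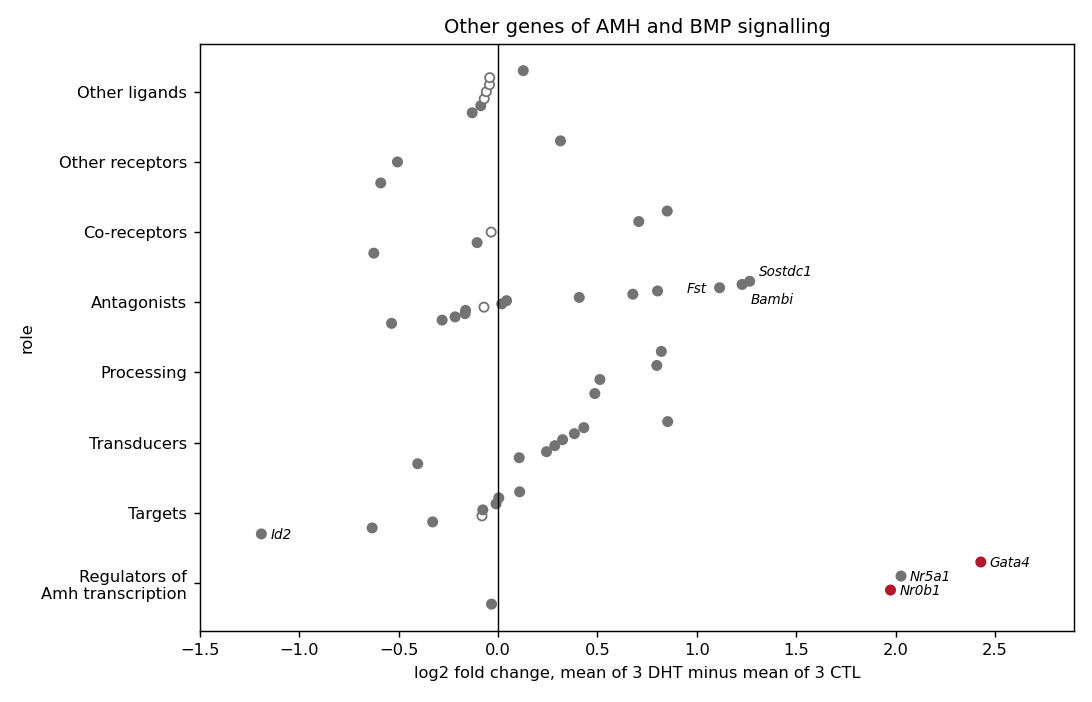
Log2 fold change (mean of 3 DHT minus mean of 3 CTL animals) of the 53 other measured genes of AMH and BMP signalling by role, with red points for called genes and open points for genes at background on all 6 arrays. Gata4 at 2.43 and Nr0b1 at 1.97 are the called genes, and 4 of the 7 other ligands are open points.

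The genes whose pattern was most like that of a member were sought by Pearson r over the 6 arrays of single animals among 10570 genes above background on at least 3 of them. The animals fall into the DHT and CTL groups, so a difference between the groups can by itself raise r, and the values are descriptive. For Amh they were Lnc215 (r = 0.995), Flnc, an actin-binding filamin of muscle (r = 0.994), and Gas7, a growth arrest gene (r = 0.992). For Amhr2, whose own groups overlapped, they were Tigd3 (r = 0.999), Ccno, an atypical cyclin (r = 0.999), and Coil, a protein of Cajal bodies (r = 0.992). Over all 8 arrays, pooled RNA included, r with Amhr2 was 0.988 for Tigd3, 0.999 for Ccno and 0.941 for Coil. For Bmp2 they were Polr1f, a subunit of RNA polymerase I (r = 0.995), LOC100912167 (r = 0.994) and Foxp2, a forkhead transcription factor (r = 0.992).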

How the data were processed

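RNA of ovarian cortex was hybridized to Affymetrix 3′ expression arrays of the rat genome. The authors deposited 1 log2 value for each probe set and array, made from the scans by GCRMA (background correction by probe base composition, normalization between arrays and summary to 1 value). The submitters' processing notes also name limma, and versions are not given in the sources used here. No raw scans were used. The array annotation supplied the gene symbols, and 20758 of the 20826 probe sets with 1 symbol were found in GRCr8 through their Entrez identifiers. Tests excluded the 57 control probe sets.

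The 3 DHT and 3 CTL arrays of single animals were compared with limma 3.58.1 (lmFit, then eBayes) under R 4.3.3, and every p was adjusted by Benjamini-Hochberg over 31042 probe sets. The exceptions were 2 alternatives. With dim probe sets left out the adjustment ran over 21105 probe sets, and with the mean of each gene's probe sets over 24433 entries. Where several probe sets named a gene, the one that averaged highest on these 6 arrays was used. Pooled arrays, which hold RNA of the same animals, served as a check. An array's background level was the 95th percentile of 28 probe sets for receptors of smell, pheromones and taste, and a lower bound on a fold set the measured mean of the brighter group against the mean, in the group at background on all its arrays, of the higher of that level and the measured value. Named are all members and, of the other signalling genes, those called and up to 3 per role with the smallest p. Wt1, Bmp15, Gdf9, Cdh1, Zp3, Foxl2, Nr5a2, Kitlg and Gja1 were added after their values were seen. So were Msln, Hsd17b1, Inha, Inhbb, Pdgfra, Rln1, Id1, Id3 and Id4. The members and lists were chosen with earlier results of these data known. The fit was tried on simulated data that gave both groups the spread of the DHT animals. The real groups differ in this, with a median SD over all probe sets of 0.067 in DHT and 0.236 in CTL animals. The simulation therefore does not show how the fit behaves on data like these.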

Additional observations from a re-analysis of the deposited data

How the results depend on the processing

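Bmp2 was the single member called, and the count of members called was 0 in place of 1 with the replicate number as a block, after median scaling, with a mean-variance trend and at a false discovery rate of 5%. In those settings limma gave 4, 2, 2 and 2 members at an unadjusted p under 0.05. It was 0 to 1 when each animal was left out in turn. The replicate numbers gave no clear pairing of the arrays. Deviations of same-numbered arrays correlated at -0.07, 0.44 and 0.34, and those of arrays with different numbers at -0.53 to 0.48. With the block 0 probe sets of the whole array were called. For the other signalling genes the count of 2 became 0 with the replicate block, after median scaling, with the trend and at 5%, with 11, 12, 9 and 14 at an unadjusted p under 0.05. It was 1 after quantile normalization, 4 with pooled arrays as replicate 4, 5 with array quality weights, 12 with the Gapdh covariate, and 0 to 4 when each animal was left out. Array quality weights gave CTL replicate 3 a weight of 0.028. The direction held in all 17 tested alternatives for 6 of the 9 members. Those with the replicate block, the trend, dim probe sets left out, a changed false discovery rate or no fold criterion leave the estimate unchanged by construction. Bmp6 turned to -0.036 with array quality weights and -0.081 with the mean of all probe sets, and lay between -0.15 (without CTL replicate 3) and 0.27 when each animal was left out. Bmpr2 lay between -0.65 and 0.10 when each animal was left out, and was positive without CTL replicate 1 or 3 or DHT replicate 1 or 2. Acvr1 turned to -0.16 with the Gapdh covariate and -0.011 with the mean of all probe sets. None of these values passed the test, and the cause was not tested.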
